A study of Homo sapiens with 24 samples.

Results

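The comparison described here asks how far light changed transcript levels in cells carrying a light-driven Wnt receptor beyond what the same light did to cells without it. It is the light effect in engineered monocultures minus the light effect in wild-type monocultures, (Cry2 light minus Cry2 dark) minus (wt light minus wt dark), and it was taken for every gene. The libraries were chosen by their labels alone: 12 of the 24 libraries of the series, 3 in each of 4 groups. All came from H9, an established human embryonic stem cell line, grown in E8 medium. The Cry2 groups carried the optoWnt construct, which joins the plant photoreceptor Cry2 to the intracellular part of the Wnt co-receptor LRP6, followed by 2A and mCherry, with a puromycin resistance gene, and the wt groups carried eGFP and a neomycin resistance gene but no Cry2. Light groups stood under 0.8 µW/mm2 of light for 48 h, and dark groups got no light. Each library is 1 biological replicate of 2 to 3 pooled wells, and nothing in the labels says whether replicates were separate cultures or days, so p-values measure the spread between these samples, which may be technical. The remaining 12 libraries are the same comparison in co-cultures and are used only for the last comparison.

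In canonical Wnt signalling, a ligand brings Frizzled and LRP5 or LRP6 together, the intracellular part of LRP6 draws Axin and the kinase GSK3 to the membrane, and beta-catenin escapes degradation and acts with TCF and LEF factors in the nucleus. Among the genes switched on are inhibitors of the pathway itself, so a set of feedback genes serves as its usual readout. In the mammalian embryo this signal is needed for the primitive streak, where epithelial epiblast cells lose cell contacts and become mesoderm and endoderm, and in human pluripotent cells an added Wnt signal is a standard way to start mesoderm. Cry2 clusters under blue light, which brings the attached LRP6 parts together without a ligand.

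Values are the authors' normalised read counts, and log2 differences with their SE come from limma on log2(value + 1), which understates changes of weakly expressed genes. A gene passed the test at a Benjamini-Hochberg adjusted p under 0.05. A positive difference means that light moved the gene further up, or less far down, in Cry2 than in wt, and "higher" and "lower" below refer to this difference. Means are given ± SD with n = 3, and group values in threes are replicates 1, 2 and 3.

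Assigned reads were 28237578 to 34291124 in the dark libraries and 45763662 to 54707558 in the light libraries, in both genotypes, so depth and light cannot be told apart within a genotype but are alike in the genotypes compared. The library wt light replicate 2 stood apart from its group: against replicates 1 and 3 its chi-square per degree of freedom, which is 1 under pure counting noise, was 56.78 and 46.69, and pairs in the other 3 groups gave 4.48 to 11.65. It was lower for long transcripts, with a median log2 value -0.30 from the other wt light libraries in genes with a transcript of 5295 bases or more and 0.23 in those of at most 2197 bases. When it was left out, 6 of 272 named genes newly passed the test and 5 no longer passed. Only some of the results that it moves are given with and without it. Construct reads went with the titles: the mean of eGFP was 14532 in wt dark and 13035 in wt light but 0.5 in each Cry2 group, and the fusion had 35763 ± 1616 in the dark and 49395 ± 2040.5 under light in Cry2 cells. The stem cell markers POU5F1, SOX2, NANOG, LIN28A, L1TD1 and TDGF1 were read at means of 3544 to 107550 in the wt groups and in Cry2 dark. Single markers of neural ectoderm (PAX6, SOX1), endoderm (SOX17), blood (TAL1) and skin (TP63) were at means of 0 to 6.43 in every group. Other genes known from these lineages, among them SOX3, LHX2, CXCR4, LMO2 and GATA3, were read and differed, as given below. These single markers therefore do not stand for their whole lineage.

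LRP6 itself (ENSG00000070018; GRCh38 chromosome 12, 12116025 to 12267012, - strand) was read at 3315, 3546 and 2853 in wt dark, 3240.2, 1846 and 2849 in wt light, 11474, 11715 and 12501 in Cry2 dark and 14406, 14271 and 13373 in Cry2 light. Because the construct contains the end of LRP6, its reads and those of the cells' own gene cannot be told apart. All Cry2 libraries lay above all wt libraries, and the light libraries of Cry2 above its dark ones. The log2 difference of light effects was 0.56 (exact two-sided permutation of light and dark within each genotype, p = 0.015, smallest possible 0.005). This permutation takes light to have no effect in either genotype. A small p therefore does not by itself show that the 2 light effects were unequal. Without wt light replicate 2, the lowest of the 12 values, it was 0.32 (exact permutation p = 0.06).

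Of 19444 genes tested, 4433 (22.8%) were higher and 4870 (25.0%) were lower in the difference of light effects. Counts of list members below are to be read beside these shares. The response was uneven in size: the median log2 difference was 0.88 among the higher genes and -1.43 among the lower ones, and 286 and 247 genes lay beyond 5 in either direction. For 1080 genes (5.55%) the difference was higher by more than 2-fold, and for 1763 (9.07%) lower by more than 2-fold, in limma's treat test against that size. For 8580 genes (44.1%) the 95% interval lay wholly within 2-fold, and 2961 of these still passed the test at smaller sizes. These libraries are bulk samples, so fewer cells with a transcript and less transcript per cell cannot be told apart.

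Light alone did little in wt: 14 genes (0.072%; 3 without wt dark replicate 1 or 2, and 32 without wt light replicate 2) passed the test there, against 11360 (58.4%) in Cry2, and the median size of a light effect was 0.15 in wt and 0.51 in Cry2 on the log2 scale. The difference shares its libraries with both light effects, so the 3 are set side by side and not counted against each other. In the plot of each gene's light effect in Cry2 against that in wt, the genes past the test spread vertically, from 14.20 for DKK1 to -11.26 for NPTX1.

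**Figure D1:**
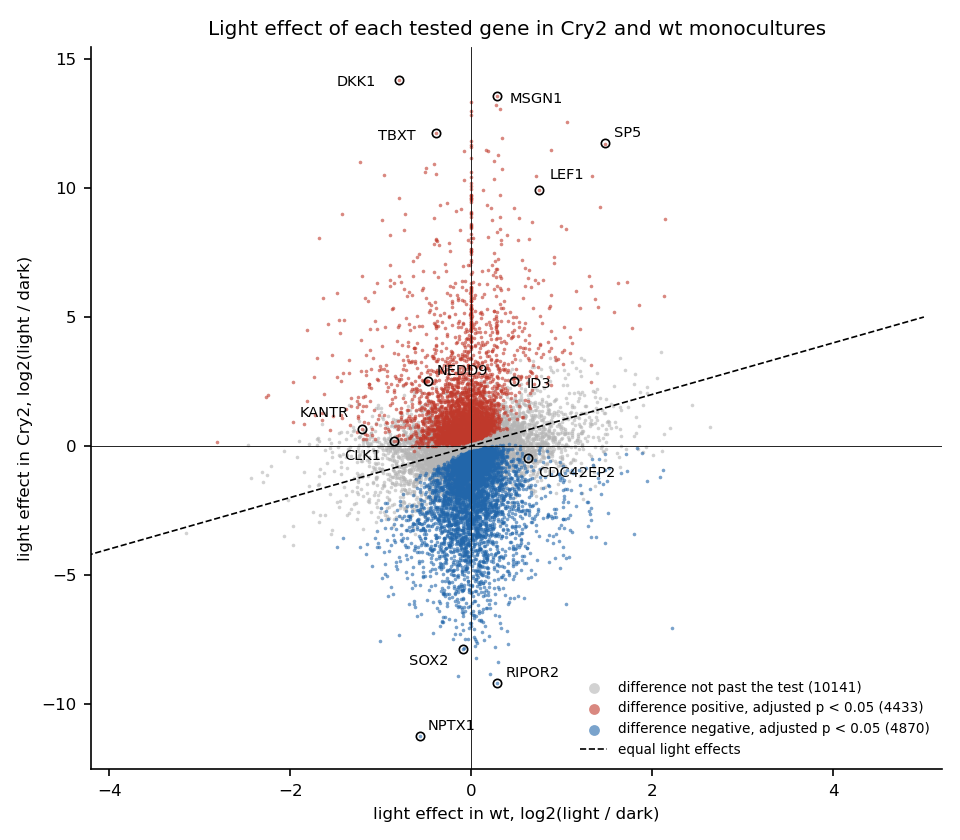
Light effect in Cry2 (vertical, log2 of light over dark) against light effect in wt (horizontal, same scale) for the 19444 genes tested, with 4433 genes of positive difference in red, 4870 of negative difference in blue and the rest in grey. The dashed line marks equal light effects; red points lie above it, up to DKK1 (14.20 on the vertical axis), and blue points below it, down to NPTX1 (-11.26), and 13 genes named in the text are labelled.

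Of the 12 largest positive differences, 11 are given here. They were led by the Wnt inhibitor DKK1 (15.00 ± 0.67). EVX1 (13.33 ± 0.50), MSGN1 (13.27 ± 0.53), HOXB3 (12.83 ± 0.51), TBXT (12.51 ± 0.71), CDX1 (12.25 ± 0.82), HOXB2 (11.68 ± 0.61) and GATA6 (11.59 ± 0.85) encode transcription factors. The others were the apelin receptor APLNR (12.96 ± 0.39), RSPO3 (12.73 ± 0.63), a secreted amplifier of Wnt signalling, and the antisense transcript EVX1-AS (11.58 ± 0.55), whose reads may overlap EVX1. At least DKK1, MSGN1, HOXB2 and HOXB3 passed the filter on low values (a value of 10 in 3 or more libraries) only through the illuminated Cry2 libraries. For these genes, passing the test follows from the filter. The 12 largest negative differences held 3 stem cell transcription factors, FOXD3 (-9.05 ± 0.35), UTF1 (-8.04 ± 0.42) and SOX2 (-7.76 ± 0.12), beside the secreted pentraxin NPTX1 (-10.69 ± 0.34), the glutamate receptor subunit GRIA4 (-8.75 ± 0.45), the tryptophan-degrading enzyme IDO1 (-8.68 ± 0.42), the complement receptor CR2 (-8.30 ± 0.36), CYP2B6 (-7.81 ± 0.33), RIPOR2 (-9.48 ± 0.63), CFAP95 (-8.08 ± 0.35) and C1orf210 (-7.76 ± 0.29). SNORD3A, a small nucleolar RNA (-9.28 ± 2.18), was uneven in wt, at 0, 1.24 and 112 in the dark and 106, 0.952 and 121 under light, and its co-culture difference was 1.33.

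Of 20 feedback and target genes of Wnt signalling, 15 (75.0%) were higher, 4 lower and 1 did not pass, with a median log2 difference of 3.53 against -0.01 over all genes. Of these 20, 4 passed the filter on low values only through the illuminated Cry2 libraries; of the other 16, 11 were higher and 4 lower (median 2.41). DKK1, a secreted inhibitor that binds LRP6 (ENSG00000107984; GRCh38 chromosome 10, 52314296 to 52318042, + strand), was read at 8.26, 7.47 and 3.73 in wt dark, 4.59, 3.81 and 1.60 in wt light, 0, 2.83 and 2.98 in Cry2 dark and 47602, 44414 and 48029 in Cry2 light. Only the 3 illuminated Cry2 libraries were high, and the other 9 stayed under 10. SP5, a transcription factor induced by beta-catenin, was read at 0, 8.71 and 0 in wt dark, 8.42, 11.4 and 0.799 in wt light, 5.22, 1.41 and 1.49 in Cry2 dark and 10882, 11818 and 11499 in Cry2 light (10.26 ± 1.15). DKK1 and SP5 are among the 4 that passed the filter only through the illuminated Cry2 libraries. Their passing the test therefore follows from the filter.

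AXIN2, the scaffold of the beta-catenin destruction complex and the standard reporter of the pathway, had a basal level in all cells, at 601, 592 and 641 in wt dark, 557, 496 and 503 in wt light and 572, 728 and 644 in Cry2 dark. In Cry2 light it stood at 6479.9, 6329 and 6112, clear of every other library, with a difference of 3.52 ± 0.13 (adjusted p 8.2e-12). NKD1, which binds Dishevelled, went from 600.0 ± 10.7 in Cry2 dark to 55910.5 ± 3911 in Cry2 light, a difference of 6.91 ± 0.18. The receptor LGR5 differed by 8.55 ± 0.86. DKK4 differed by 9.72 ± 0.60 but had no read in the 6 wt libraries, so this difference rests on the pseudocount. The quasi-likelihood test of edgeR called 0 of the 104 higher genes with no wt read, DKK4 among them. The plot of single libraries shows the same step for DKK1, SP5 and LEF1.

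The 4 lower members were all secreted inhibitors: SFRP1 (-2.15 ± 0.09), SFRP2 (-3.38 ± 0.09), SFRP5 (-4.43 ± 0.43) and WIF1 (-3.44 ± 0.60), which bind Wnt ligands outside the cell. SFRP1 and SFRP2 were abundant before light, at 23109.5 ± 342 and 22225 ± 1376 in Cry2 dark, and stood at 4847 ± 124 and 2257 ± 17.7 in Cry2 light. NKD2, a relative of NKD1, did not pass, at -0.23 ± 0.20. The receptor-removing ligases RNF43 and ZNRF3 were higher by 0.99 ± 0.29 and 0.26 ± 0.10; for RNF43 the wt effect, -0.73 ± 0.20, was larger in size than the Cry2 effect, 0.26 ± 0.20, and for ZNRF3 the call was lost under 15 of the 24 alternatives tried for each gene.

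Of 17 ligands in the table, 13 were tested, and 7 were higher, 3 lower and 3 not past the test (median 3.64). Of these, 3 passed the filter only through illuminated Cry2 cells, and of the other 10, 5 were higher and 3 lower. WNT8A (11.13 ± 0.72), WNT3A (8.49 ± 0.36), WNT5A (7.65 ± 0.28), WNT5B (5.71 ± 0.21) and WNT6 (4.02 ± 0.78) had the largest positive differences. WNT5A, a ligand best known for signalling without beta-catenin, went from 89.4 ± 34.8 in Cry2 dark to 21817 ± 1664 in Cry2 light while wt stood at 85.99 ± 8.79 and 108 ± 11.1. WNT8B (-5.68 ± 0.56), WNT7B (-2.60 ± 0.72) and WNT9A (-1.36 ± 0.34) were lower, and WNT2B (-0.82 ± 0.73), WNT4 (-0.03 ± 0.43) and WNT9B (1.07 ± 1.33) did not pass.

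Receptors split: of 17, 7 were higher (41.2%, against 22.8% of all genes), 4 lower (23.5%, against 25.0%) and 6 not past the test, with a median of 0.08. FZD10 (8.02 ± 0.38) and FZD5 (-6.48 ± 0.39) moved furthest in opposite directions, with FZD10 going from 34.6 ± 13.3 to 5845 ± 243 and FZD5 from 3839 ± 218 to 39.3 ± 19.4 in Cry2 cells. The receptor kinases for WNT5A split as well, with ROR2 at 3.54 ± 0.12 and ROR1 at -4.64 ± 0.22. LRP5, the relative of LRP6, did not pass, at 0.08 ± 0.13.

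Among the nuclear partners of beta-catenin, 6 of 13 were higher and 5 lower (median 0.28). LEF1 was read at 19.3, 14.9 and 17.4 in wt dark, 32.9, 24.7 and 31.2 in wt light, 11.8, 22.6 and 10.4 in Cry2 dark and 14788, 15088 and 14708 in Cry2 light (9.20 ± 0.35), and TCF7, the other member known mainly as an activator, differed by 3.15 ± 0.13. TCF7L1, the member known mainly as a repressor in embryonic stem cells, was lower (-3.32 ± 0.08), going from 8177 ± 389 to 799 ± 28.2 in Cry2 cells, and so were TCF7L2 (-0.90 ± 0.12) and the co-repressors TLE2 (-6.35 ± 0.51) and TLE1 (-2.54 ± 0.12). TLE3, also a co-repressor, was higher (1.38 ± 0.09), and CTNNB1, which encodes beta-catenin, differed by 0.49 ± 0.09.

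Transducers between receptor and nucleus moved little in size: of 13, 11 had intervals within 2-fold, against 44.1% of all genes. Of the 13, 5 were higher (38.5%, against 22.8% of all genes), 1 lower (7.7%, against 25.0%) and 7 not past the test, with a median of 0.20. AMER1 (0.91 ± 0.20) and DVL2 (0.79 ± 0.08) had the largest differences, and GSK3A (0.07 ± 0.12), GSK3B (0.04 ± 0.13), APC (0.63 ± 0.27) and AXIN1 (-0.21 ± 0.09) did not pass. The lower member, CSNK1E (-0.23 ± 0.07), lost its call under 6 of the alternatives.

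**Figure D2:**
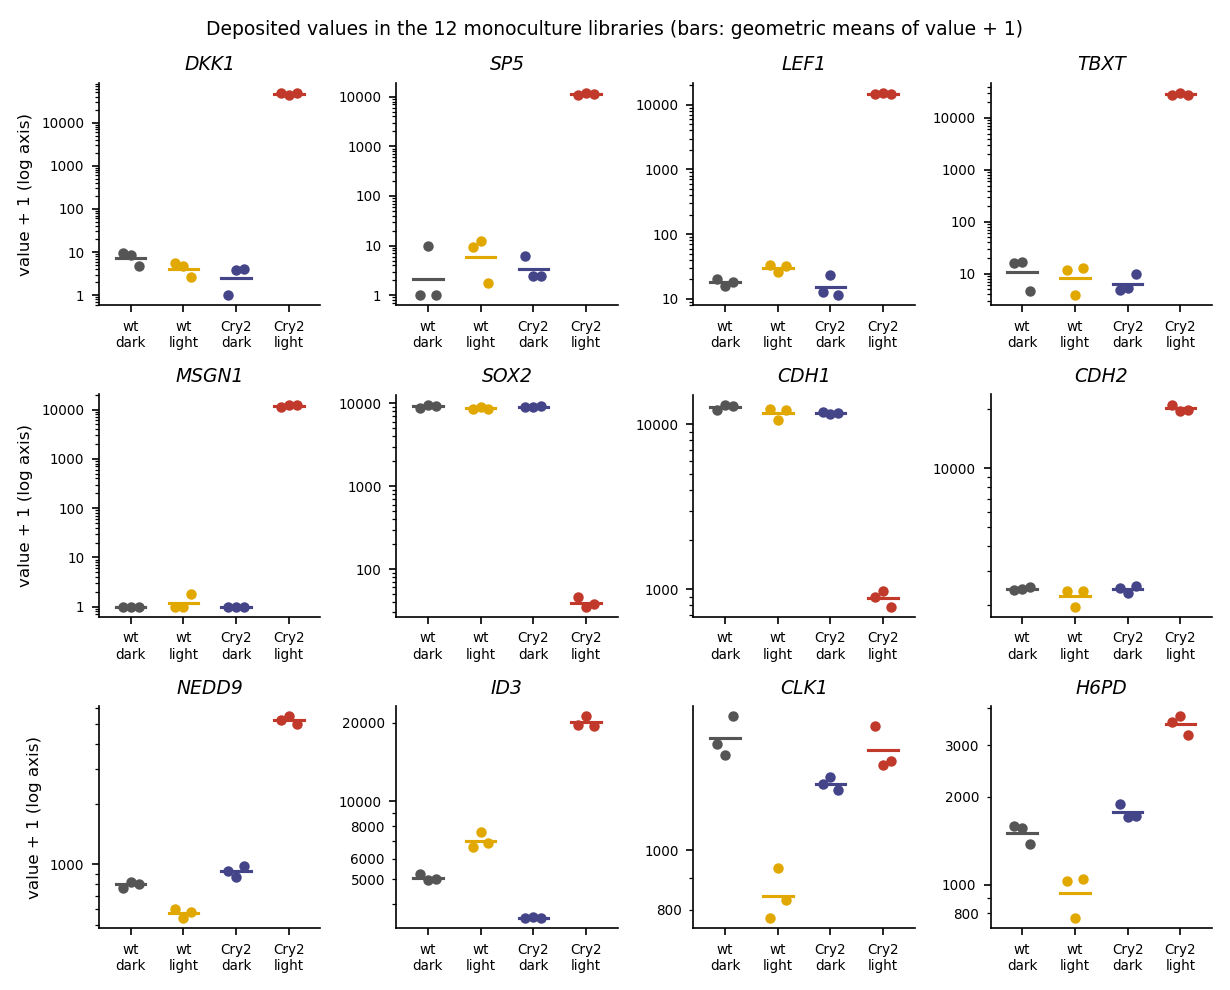
Deposited values of 12 genes in the 12 monoculture libraries, 3 per group, on log axes of value + 1, with a bar at each group's geometric mean. DKK1, SP5, LEF1, TBXT and MSGN1 are high only in the 3 Cry2 light libraries, SOX2 and CDH1 are low only there, and CLK1 is low in wt light.

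The letters that TCF and LEF factors bind, CTTTGAT on either strand, were searched in RefSeq promoters (GRCh38.p14, 250 bases before to 50 after each gene's start), because feedback genes and TCF and LEF genes were among those with large differences. Of 27305 promoters, 721 (2.64%) hold them. Of the tested genes with a promoter in the table, 184 of 13040 (1.41%) do, as do 18 of 741 (2.43%) of genes higher by more than 2-fold, 15 of 1160 (1.29%) of genes lower by more than 2-fold, and 54 of 4382 (1.23%) of genes within 2-fold and not past the test. Of the 33 feedback, TCF and LEF symbols, 24 matched a promoter, and SP5 was the 1 member with a match. Its 250 bases before the start, chr2:170715087-170715336 on the + strand, are shown with the match in capitals, which begins 109 bases before the start.
SP5 promoter: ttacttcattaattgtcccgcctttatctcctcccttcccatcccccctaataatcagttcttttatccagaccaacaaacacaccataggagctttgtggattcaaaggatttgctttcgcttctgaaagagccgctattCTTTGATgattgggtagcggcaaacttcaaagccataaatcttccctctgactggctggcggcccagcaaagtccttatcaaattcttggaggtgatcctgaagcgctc
A match is a string of letters in this window and not a measured binding site.

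Of 14 primitive streak factors, 12 were higher and 2 did not pass, with a median of 9.44. Of the 14, 6 passed the filter only through illuminated Cry2 cells, and of the other 8, 6 were higher (median 5.33). TBXT, also called brachyury, the defining factor of the streak (ENSG00000164458; GRCh38 chromosome 6, 166157656 to 166168700, - strand), was read at 15.1, 16.2 and 3.73 in wt dark, 10.7, 2.86 and 11.99 in wt light, 3.92, 4.24 and 8.93 in Cry2 dark and 27769, 30093 and 27110.0 in Cry2 light. The Cry2 light libraries overlapped no other group, and the 9 other libraries stayed under 20. MIXL1, a streak homeobox factor, was read at 48.2, 43.6 and 53.4 in wt dark, 58.95, 45.7 and 35.2 in wt light, 32.6, 77.8 and 56.6 in Cry2 dark and 71118, 65082 and 68005 in Cry2 light (10.39 ± 0.35). EVX1, whose difference is given above, lay over TBXT, CDX1 and LHX1 (10.79 ± 0.72) lay under it, and EOMES (9.18 ± 0.73), GSC (7.23 ± 0.74) and CER1 (5.67 ± 0.28), known from the anterior streak and its derivatives, were higher as well. MESP2 (0.82 ± 0.43) and CDX4 (-0.91 ± 0.84) did not pass.

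Of 10 genes of presomitic mesoderm and the segmentation clock, 7 were higher, 1 lower and 2 not past the test (median 4.01). Apart from 1 gene that passed the filter only through illuminated Cry2 cells, 6 of 9 were higher and 1 lower (median 3.51). MSGN1, which marks the presomitic mesoderm, had no read in wt dark or Cry2 dark and was read at 0, 0 and 0.799 in wt light and 11415, 12600.3 and 12162 in Cry2 light. HES7 (7.39 ± 0.55), TBX6 (6.74 ± 0.22), DLL3 (5.05 ± 0.15) and DLL1 (4.51 ± 0.20) followed. TBX6 and DLL3 went from 155 ± 37.1 and 809 ± 84.2 in Cry2 dark to 16504 ± 1273 and 28560.4 ± 1378 in Cry2 light. TCF15, a later somite factor, was lower (-1.62 ± 0.23), and RIPPLY2 (0.41 ± 0.57) and PCDH8 (0.07 ± 0.60) did not pass.

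Of 11 lateral and cardiac mesoderm genes tested, 7 passed the filter only through illuminated Cry2 cells, so that their difference follows from the filter. Of the other 4, 2 were higher, 1 lower and 1 not past the test. GATA6, TBX3 (10.62 ± 0.67), HAND1 (10.44 ± 0.64), FOXF1 (9.30 ± 0.73) and GATA4 (8.75 ± 0.62) led, all transcription factors. TNNT2, a contractile protein of heart muscle, was lower (-5.43 ± 0.38), going from 316 ± 41.7 to 5.995 ± 2.30 in Cry2 cells, and NKX2-5 (1.93 ± 1.13) and KDR (-0.005 ± 0.15) did not pass.

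Of 39 HOX genes, which give cells their position along the body axis, 30 were in the table and 26 were tested, all of them only through illuminated Cry2 cells, so that their difference follows from passing the filter and supports nothing. They are given as values. HOXB1 and HOXB3 reached 7555 ± 278 and 7292 ± 390.4 in Cry2 light, HOXA5 and HOXB9 reached 522 ± 71.8 and 459 ± 5.18, and HOXA9, HOXA10 and HOXA11 stood at 2.58 ± 0.743, 2.95 ± 2.27 and 3.86 ± 2.81, under the filter. The group means in wt were at most 0.459 for HOXB1 and HOXB3. Of the higher genes in the whole table, 433 passed the filter only through illuminated Cry2 cells, and 104 had no read in the 6 wt libraries. Their difference of light effects rests on the pseudocount, and edgeR's quasi-likelihood test on the recovered reads called 0 of these 104, against 4049 of the other 4329. It called 2 of the 26 HOX genes.

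Markers of other lineages did not move as one. Definitive endoderm genes were higher for 2 of 6 and lower for 1, with CXCR4, a chemokine receptor, at 7.78 ± 0.40, FOXA3 at -1.18 ± 0.14, and FOXA2 (-1.36 ± 0.71) and HHEX (0.01 ± 0.88) not past the test. Of 6 neural ectoderm genes 3 were higher and 2 lower, from LHX2 (4.27 ± 0.52) to SOX3 (-4.87 ± 0.28), which went from 1038 ± 69.2 to 33.3 ± 11.2 in Cry2 cells. Neural crest genes split into 4 higher, led by MSX1 (10.11 ± 0.65), and 2 lower, led by FOXD3, with 1 not past the test. Apart from 1 neural crest gene that passed the filter only through illuminated Cry2 cells, 3 of 6 were higher and 2 lower. Of 4 amnion and surface ectoderm genes, GATA3 (4.52 ± 1.02) and GATA2 (3.63 ± 0.86) were higher, and GABRP (-6.32 ± 0.43) and TFAP2C (-3.10 ± 0.26) lower. In this list, too, 1 gene passed the filter only through illuminated Cry2 cells, and 1 of the other 3 was higher and 2 lower. Of 5 endothelial and blood genes, LMO2 was higher (6.67 ± 0.23), CDH5, the endothelial cadherin, was lower (-2.69 ± 0.69), and RUNX1, ETV2 and TEK did not pass.

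Pluripotency factors were lower for 12 of 14 (median -2.39). SOX2, a core factor of the stem cell state (ENSG00000181449; GRCh38 chromosome 3, 181711924 to 181714436, + strand), was read at 8899.6, 9689.9 and 9314 in wt dark, 8469, 9007 and 8631 in wt light, 8976, 9007 and 9389 in Cry2 dark and 45.2, 34.03 and 36.4 in Cry2 light. The illuminated Cry2 libraries were the only low ones and overlapped no other group. NANOG was read at 3660.0, 3720.4 and 3902 in wt dark, 4261, 4598 and 4097 in wt light, 3781, 3479 and 3371 in Cry2 dark and 49.8, 64.01 and 39.04 in Cry2 light (-6.32 ± 0.18). POU5F1, the third core factor, remained abundant, with 91486 ± 5302 in Cry2 dark and 22407 ± 876 in Cry2 light (-2.20 ± 0.09). TDGF1 (-3.15 ± 0.09), TERT (-3.01 ± 0.14) and DPPA2 (-2.69 ± 0.29) lay between NANOG and POU5F1 in size. LIN28B (0.81 ± 0.12) and SALL4 (0.76 ± 0.09) were the 2 higher members.

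Naive pluripotency and germ cell factors split into 3 higher, 5 lower and 3 not past the test. Apart from 2 that passed the filter only through illuminated Cry2 cells, 1 of 9 was higher and 5 were lower. DPPA3 (-5.74 ± 0.51), TFCP2L1 (-5.52 ± 0.29) and DPPA5 (-5.19 ± 0.53) were lower, with no read of DPPA3 or DPPA5 in Cry2 light. The higher ones were TBX3, also a mesoderm factor, NR0B1 (3.92 ± 1.11) and PRDM1 (2.53 ± 0.94), whose call was lost under 9 of the alternatives. Of 8 DNA methylation genes, 5 were higher, led by TET2 (1.81 ± 0.31) and UHRF1 (1.33 ± 0.11), and DNMT3A was lower (-0.70 ± 0.07).

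Of 20 epithelial junction genes, 17 (85.0%) were lower, 1 was higher and 2 not past the test, with a median of -3.55. CDH1, the epithelial cadherin (ENSG00000039068; GRCh38 chromosome 16, 68737225 to 68835548, + strand), was read at 12221, 13191 and 12921 in wt dark, 12347, 10699 and 12267 in wt light, 11941, 11574 and 11695 in Cry2 dark and 903, 979.7 and 784 in Cry2 light (-3.61 ± 0.11). CLDN3 (-6.97 ± 0.53) and CLDN4 (-4.63 ± 0.17), which seal tight junctions, TJP3 (-6.50 ± 0.32), the polarity gene CRB3 (-5.83 ± 0.49) and the epithelial splicing regulator ESRP2 (-5.51 ± 0.15) fell furthest. DSP, the desmosome plaque protein, was higher (2.16 ± 0.20), going from 6699.6 ± 339 to 23269 ± 1167 in Cry2 cells, and DSG2 (0.14 ± 0.15) and TJP1 (-0.35 ± 0.16) did not pass.

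Of 15 mesenchymal and EMT genes, 12 were higher and 3 did not pass (median 3.36). Of the 15, 4 passed the filter only through illuminated Cry2 cells, and of the other 11, 8 were higher (median 3.27). CDH2, the cadherin of mesenchymal cells, was read at 2398, 2418 and 2491 in wt dark, 2379.6, 1968 and 2362 in wt light, 2456, 2309 and 2494 in Cry2 dark and 21077, 19609 and 19795 in Cry2 light (3.19 ± 0.10). The repressors of CDH1 were among the highest, ZEB2 at 11.49 ± 1.03, SNAI2 at 7.04 ± 0.42 and ZEB1 at 6.66 ± 0.57, with SNAI1 of the streak list at 4.99 ± 0.13. COL3A1 (10.41 ± 0.60), CDH11 (6.48 ± 0.16) and the intermediate filament VIM (4.18 ± 0.11) rose too, VIM from 3822 ± 129 to 62036 ± 1179.7 in Cry2 cells. TWIST2 (0.50 ± 0.32), COL1A1 (0.20 ± 0.12) and S100A4 (-0.55 ± 0.22) did not pass.

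Integrins and laminins, which hold cells to the basement membrane, changed in both directions: of 22, 9 were higher, 11 lower and 2 not past the test. Apart from 1 that passed the filter only through illuminated Cry2 cells, 8 of 21 were higher and 11 lower. The fibronectin receptor subunit ITGA5 (3.41 ± 0.09) went from 3037 ± 141 to 31432 ± 1339.7 in Cry2 cells, and ITGA9 (3.49 ± 0.20) and LAMB1 (1.40 ± 0.11) were higher too. ITGA2 (-4.54 ± 0.41), LAMB3 (-3.27 ± 0.79), LAMA3 (-2.32 ± 0.41) and the laminin receptor subunit ITGA3 (-1.77 ± 0.12) were lower. ITGB1, the beta subunit shared by most of these integrins, differed by 0.02 ± 0.15 and did not pass. Of 5 fibroblast markers checked, THY1 (-2.09 ± 0.09) and POSTN (-1.82 ± 0.69) were lower, COL1A1 did not pass, and LUM and DCN were not among the genes tested.

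**Figure D3:**
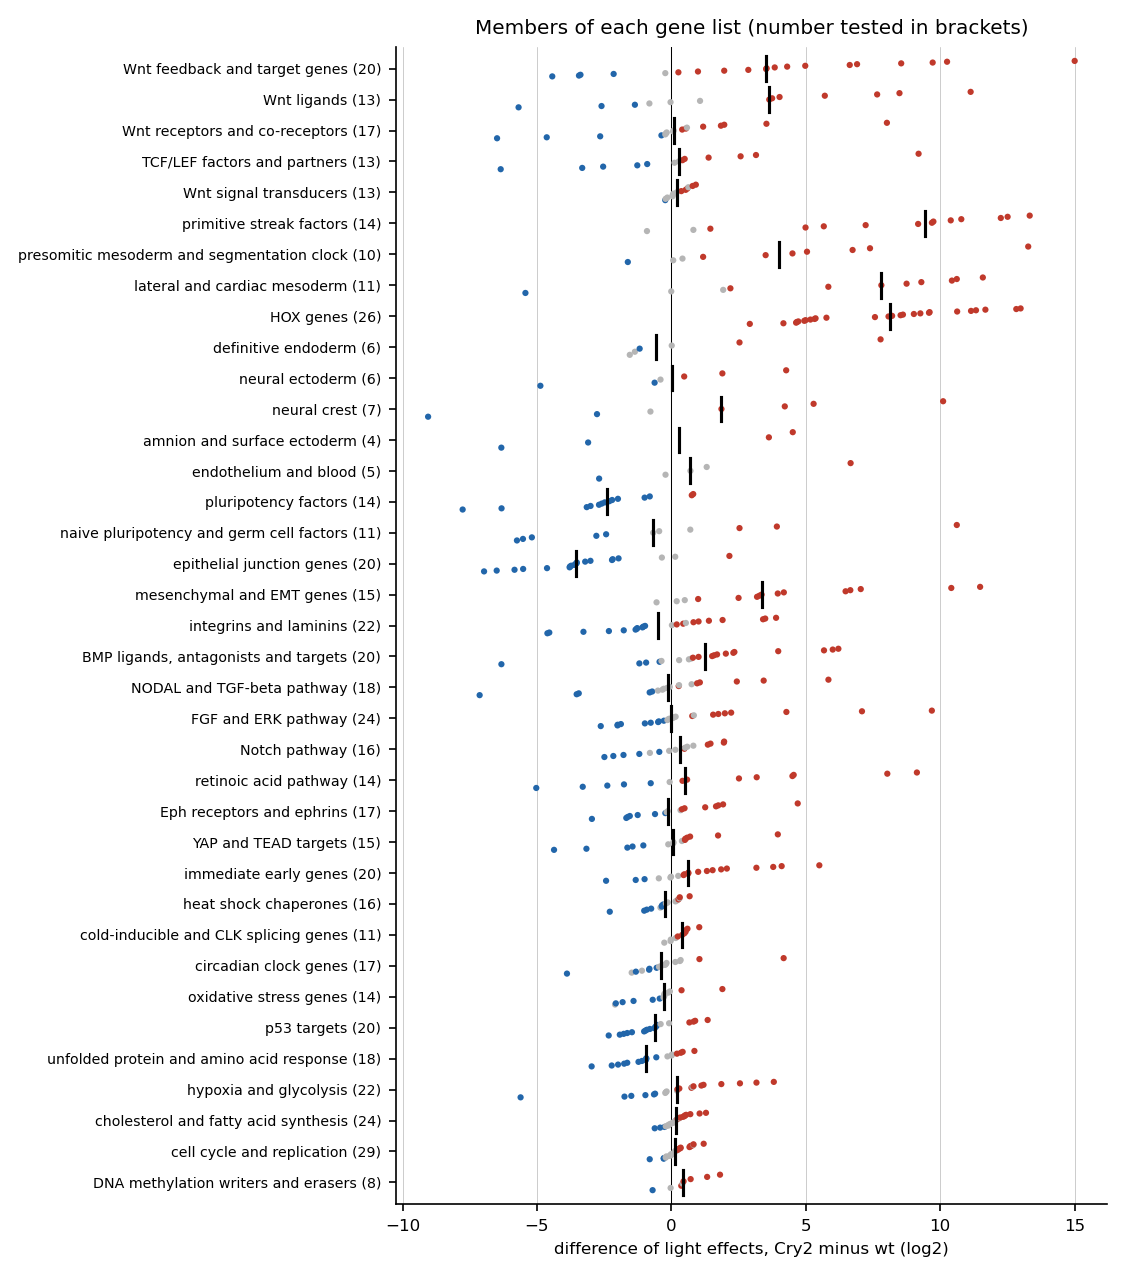
Difference of light effects (horizontal, log2) of each tested member of 37 gene lists, red for higher, blue for lower and grey for not past the test, with a black bar at each list's median. Streak, HOX and lateral mesoderm genes lie furthest right, and epithelial and pluripotency genes lie left. The cell cycle and cholesterol lists lie close to 0, and the cold-inducible list lies slightly right of it (median 0.40). All 26 HOX genes, 7 of 11 lateral mesoderm genes and 6 of 14 streak genes passed the filter only through illuminated Cry2 cells. The positions of these genes follow from the filter. The other 4 lateral mesoderm genes had a median of 1.10, and the other 8 streak genes 5.33.

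Of 20 BMP pathway genes, 12 were higher, 4 lower and 4 not past the test (median 1.26). Apart from 2 that passed the filter only through illuminated Cry2 cells, 10 of 18 were higher and 4 lower (median 0.91). The ligands BMP4 and BMP2 went from 203 ± 28.95 and 79.6 ± 3.66 in Cry2 dark to 15958 ± 431 and 4469 ± 116 in Cry2 light (6.21 ± 0.21 and 5.68 ± 0.20), while BMP6 (-6.32 ± 0.38) and BMP7 (-1.19 ± 0.11) were lower. Antagonists and dampers rose as well, GREM1 by 3.98 ± 0.99 and BAMBI by 2.34 ± 0.12. The direct targets ID3 (2.03 ± 0.09), ID2 (1.70 ± 0.19) and ID1 (0.80 ± 0.14) were higher, ID4 (0.74 ± 0.32) did not pass, and SMAD7 was lower (-0.44 ± 0.12), with a light effect of 0.48 ± 0.09 in wt, not past the test alone, and 0.04 ± 0.09 in Cry2.

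NODAL signalling, which keeps human stem cells pluripotent and also patterns the streak, had 6 higher (33.3%), 5 lower (27.8%) and 7 not past the test among 18 genes. Over all genes the shares were 22.8% and 25.0%. Apart from 1 that passed the filter only through illuminated Cry2 cells, 5 of 17 were higher and 5 lower. The NODAL feedback inhibitors LEFTY2 (-7.13 ± 0.66) and LEFTY1 (-3.52 ± 0.23) and the ligand GDF3 (-3.45 ± 0.22) were lower, and NODAL itself differed by -0.81 ± 0.18. INHBB (5.84 ± 0.96) and TGFB1 (3.43 ± 0.19) were higher.

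In the FGF and ERK list of 24, 8 were higher (33.3%, against 22.8% of all genes), 9 lower (37.5%, against 25.0%) and 7 not past the test. Apart from 2 that passed the filter only through illuminated Cry2 cells, 6 of 22 were higher and 9 lower. Ligands changed over: FGF17 (9.69 ± 0.99), FGF10 (7.09 ± 0.99) and FGF8 (4.28 ± 0.59), known from the streak and mesoderm, were higher, and FGF2 (-2.63 ± 0.11), which supports the stem cell state, FGF19 (-2.003 ± 0.16) and the receptor FGFR2 (-1.998 ± 0.10) were lower. The feedback inhibitors SPRED2 (2.22 ± 0.12) and SPRY2 (1.99 ± 0.11) were higher, whereas the ERK phosphatase genes DUSP6 (-0.07 ± 0.08), DUSP5 (0.16 ± 0.11) and DUSP4 (-0.15 ± 0.15) did not pass.

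Retinoic acid genes were tested for 14: 8 were higher, 5 lower and 1 not past the test. Apart from 1 that passed the filter only through illuminated Cry2 cells, 7 of 13 were higher and 5 lower. The mesodermal synthesis enzyme ALDH1A2 went from 7.13 ± 3.25 to 10909.6 ± 724 in Cry2 cells (9.13 ± 0.57), with STRA6 (4.50 ± 0.12), which takes up retinol, also higher. The other synthesis enzymes ALDH1A1 (-5.03 ± 0.79) and ALDH1A3 (-1.76 ± 0.21) were lower.

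Notch genes outside the segmentation clock list split into 5 higher and 5 lower of 16 (31.2% each way, against 22.8% and 25.0% of all genes), with HEY2 (1.96 ± 0.12), HES1 (1.95 ± 0.23) and NOTCH1 (1.46 ± 0.18) higher and NRARP (-2.49 ± 0.13), DLL4 (-2.16 ± 0.83) and JAG2 (-1.78 ± 0.23) lower. The call of DLL4 was lost under 15 of the alternatives. Eph receptors and ephrins, which sort cells at tissue boundaries, split into 7 and 7 of 17 (41.2% each way), led by EPHA4 (4.70 ± 0.14) and EPHA1 (-2.96 ± 0.09). Of 15 YAP and TEAD targets 6 were higher (40.0%) and 5 lower (33.3%), and the usual readouts CCN2 (-4.36 ± 0.09) and CCN1 (-3.16 ± 0.12) had the largest negative differences, beside ANKRD1, higher by 3.96 ± 0.93.

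The subtraction of wt matters where light itself moved a gene, and lists that light or stress could reach were read for this. Heat shock chaperones had a median light effect of 0.31 in wt and 0.11 in Cry2, with a median difference of -0.25. Of 16, 13 lay within 2-fold, against 44.1% of all genes. There were 3 higher (18.8%, against 22.8% of all genes), 7 lower (43.8%, against 25.0%) and 6 not past the test. HSPA8, the constitutive chaperone of the HSP70 family, went from 72672 ± 3260.4 to 92999.5 ± 7452 in wt and from 61602 ± 2560.1 to 63805 ± 4087 in Cry2, a difference of -0.30 ± 0.10 that lost its call under 6 of the alternatives. The stress-induced copies HSPA1A (0.30 ± 0.15) and HSPA1B (-0.41 ± 0.21) did not pass. They are near-identical genes whose reads may be shared. HSPA4L (-2.29 ± 0.24), HSPE1 (-1.01 ± 0.23) and HSPD1 (-0.92 ± 0.09) were lower.

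Cold-inducible genes and CLK splicing kinases were higher for 7 of 11, with 4 not past the test (median 0.40). For CLK1, a splicing kinase (ENSG00000013441; GRCh38 chromosome 2, 200853009 to 200864744, - strand), values were 1492, 1433 and 1659 in wt dark, 773, 934 and 827 in wt light, 1282, 1318 and 1256 in Cry2 dark and 1599, 1382 and 1402 in Cry2 light. The 3 wt light libraries were the lowest of the 12 and overlapped no other group, so the difference of 1.04 ± 0.13 came from a fall in wt (-0.86 ± 0.09) with 0.18 ± 0.09 in Cry2. RBM3, a cold-inducible RNA-binding protein, had the same shape, with 6507, 6202 and 6924 in wt dark, 4206, 5142 and 4746 in wt light, 5460.1, 5438 and 5413 in Cry2 dark and 5892, 5216 and 5219.9 in Cry2 light, and a difference of 0.48 ± 0.11. CLK4, whose light effects were -0.55 ± 0.12 in wt and -0.57 ± 0.12 in Cry2, differed by -0.02 ± 0.17 and did not pass.

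Circadian genes were higher for 2 of 17 (11.8%, against 22.8% of all genes), lower for 5 (29.4%, against 25.0%; 3 without wt dark replicate 1 and Cry2 dark replicate 3) and not past the test for 10. BHLHE40 (4.18 ± 0.17), which is also a hypoxia and differentiation gene, and PER1 (1.04 ± 0.12) were higher, and HLF (-3.88 ± 0.96), DBP (-1.32 ± 0.24) and PER3 (-0.83 ± 0.24) lower. The human genes CRY1 (0.15 ± 0.13) and CRY2 (-0.20 ± 0.11), relatives of the plant photoreceptor, did not pass.

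Of 20 immediate early genes 13 were higher (65.0%, against 22.8% of all genes), 3 lower (15.0%, against 25.0%) and 4 not past the test (median 0.63). Apart from 1 that passed the filter only through illuminated Cry2 cells, 12 of 19 were higher and 3 lower (median 0.63). EGR3 (5.50 ± 0.66), EGR1 (4.10 ± 0.44), IER3 (3.79 ± 0.10) and JUNB (3.16 ± 0.28) led, EGR1 going from 268 ± 70.2 to 5225 ± 92.8 in Cry2 and from 124 ± 74.1 to 127 ± 11.5 in wt. MYC, a Wnt target in other tissues, was lower (-1.33 ± 0.11), at 3328 ± 105 in Cry2 dark and 1626 ± 109 in Cry2 light, as was FOSL1 (-2.43 ± 0.21). IER2 rose in both genotypes, with 4918, 5418 and 5350.2 in wt dark, 6755, 8460.2 and 6903 in wt light, 4796, 4586 and 5088 in Cry2 dark and 6515, 6886 and 6722 in Cry2 light, and its difference was -0.01 ± 0.11.

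Targets of p53 were lower for 14 of 20 and higher for 4 (median -0.62), led by PHLDA3 (-2.33 ± 0.13), GDF15 (-1.92 ± 0.22), RRM2B (-1.77 ± 0.14) and SESN2 (-1.64 ± 0.10). Some of these differed between the genotypes in the dark: CDKN1A, the cell cycle inhibitor, stood at 1073 ± 90.7 in wt dark, 765 ± 75.1 in wt light, 2480.0 ± 239 in Cry2 dark and 875 ± 82.6 in Cry2 light (-1.01 ± 0.15), so its level in Cry2 light lay between the wt means. GDF15 was likewise highest in Cry2 dark, but its Cry2 light mean lay below both wt means, with 300.0 ± 68.3, 245 ± 19.05, 769 ± 93.5 and 167 ± 1.31. In co-culture, the median of the list was -0.13 and GDF15 differed by 0.11.

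Genes of the unfolded protein and amino acid response were lower for 11 of 18 (61.1%, against 25.0% of all genes) and higher for 4 (22.2%, against 22.8%), with a median of -0.93. The largest negative differences were those of CHAC1, which degrades glutathione (-2.97 ± 0.10), the mTORC1 inhibitor DDIT4 (-2.22 ± 0.10) and the serine synthesis enzyme PSAT1 (-1.76 ± 0.08), while the endoplasmic reticulum chaperone HSPA5 was higher (0.35 ± 0.08) and DDIT3 (0.01 ± 0.20) and XBP1 (-0.15 ± 0.08) did not pass. Oxidative stress genes were lower for 5 of 14 (35.7%, against 25.0% of all genes) and higher for 2 (14.3%, against 22.8%), with HMOX1, heme oxygenase, at -1.81 ± 0.14 and TXNIP, a glucose-responsive inhibitor of thioredoxin, at 1.90 ± 0.23. Hypoxia and glycolysis genes were higher for 10 of 22 (45.5%) and lower for 6 (27.3%). They ran from PDK1 (3.81 ± 0.11), a pyruvate dehydrogenase kinase, to ADM (-5.61 ± 0.38), with VEGFA at -1.74 ± 0.12.

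Lists of basic cell functions stayed close to 0. Of 29 cell cycle genes 24 had intervals within 2-fold, against 44.1% of all genes. There were 11 higher (37.9%, against 22.8% of all genes), 3 lower (10.3%, against 25.0%) and 15 not past the test. The share past the test in either direction was near the 47.8% of all genes. The lower count was 6 with quantile scaling and 1 without wt dark replicate 1 and Cry2 dark replicate 3. Apart from 1 that passed the filter only through illuminated Cry2 cells, 11 of 28 were higher and 3 lower. CDK6 (1.20 ± 0.13) and MKI67 (0.78 ± 0.20) were higher, CCND2 was lower (-0.81 ± 0.08), and CDK1 (-0.02 ± 0.11), PLK1 (0.09 ± 0.09), CCNB1 (0.06 ± 0.09) and TOP2A (0.12 ± 0.15) did not pass. Of 24 cholesterol and fatty acid genes 22 were within 2-fold, against 44.1% of all genes, 9 were higher (37.5%, against 22.8%) and 3 lower (12.5%, against 25.0%; 1 without wt dark replicate 2), led by FADS1 (1.29 ± 0.08) and FDFT1 (-0.62 ± 0.07), and FASN (0.30 ± 0.14), SCD (-0.11 ± 0.10) and SREBF1 (-0.06 ± 0.11) did not pass.

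The 14 genes that passed the test in wt are all named here, since they show what the subtraction removes or adds. For 10 of them the difference passed too. NEDD9, a scaffold of focal adhesions, was read at 766, 818 and 802 in wt dark, 598, 539 and 576 in wt light, 924, 865 and 987 in Cry2 dark and 5268, 5488 and 4994 in Cry2 light. It fell in wt and rose in Cry2 (2.98 ± 0.11), with no overlap between light and dark in either genotype. H6PD, an enzyme of the endoplasmic reticulum, moved the same way, with 1582, 1562 and 1379 in wt dark, 1032, 767 and 1041 in wt light, 1888, 1708 and 1714 in Cry2 dark and 3600.1, 3766 and 3233 in Cry2 light (1.68 ± 0.15). CDC42EP2, which binds the GTPase CDC42, did the reverse, with a rise in wt (0.62 ± 0.10) and a fall in Cry2 (-0.49 ± 0.10).

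ID3 rose in both genotypes and more in Cry2: it was read at 5223, 4955 and 5024 in wt dark, 6629.6, 7634 and 6873 in wt light, 3551, 3566 and 3541 in Cry2 dark and 19692, 21228 and 19399 in Cry2 light. DNAJB1, a chaperone partner, also rose in both, with a difference of 0.27 ± 0.09 that lost its call under 10 of the alternatives. PRICKLE1, a planar polarity gene (-0.55 ± 0.12), and ZNF721 (-0.67 ± 0.14) fell in both and further in Cry2, and ACSS2, which makes acetyl-CoA, fell further in wt (0.43 ± 0.09). CLK1 and RBM3 complete the 10. For the other 4 the difference did not pass: DUSP6, DUSP5 and IER2 rose in both genotypes, and LRIG2 fell in both (-0.75 ± 0.10 in wt and -0.88 ± 0.10 in Cry2). The plot of these genes sets the light effects of both genotypes side by side.

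**Figure D4:**
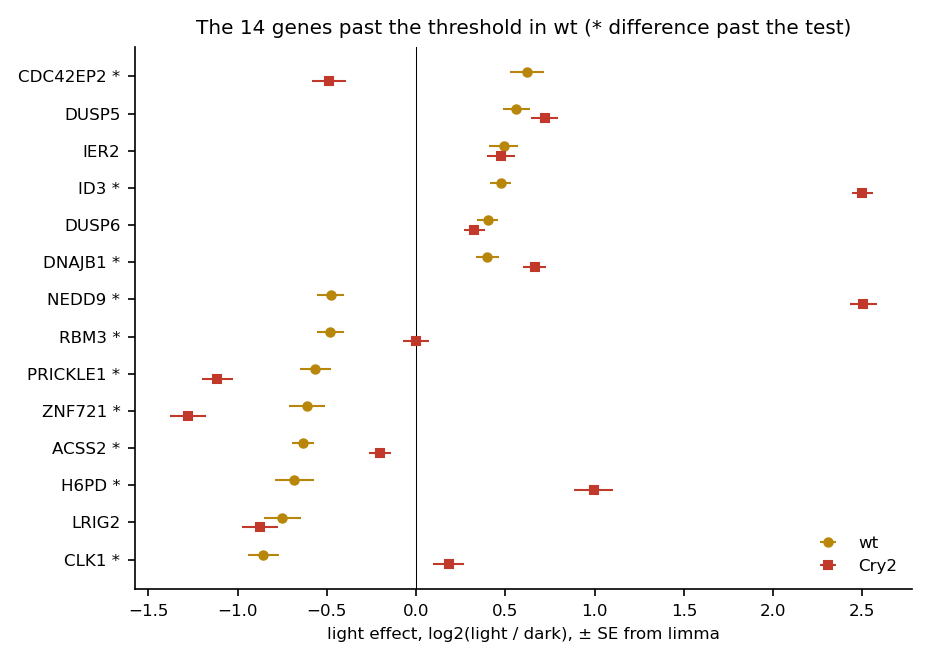
Light effect (horizontal, log2 of light over dark, ± SE from limma) in wt (circles) and in Cry2 (squares) for the 14 genes past the test in wt, with a star where the difference passed. DUSP5, IER2, DUSP6 and LRIG2 have overlapping or neighbouring symbols, and NEDD9, H6PD, CDC42EP2 and CLK1 have symbols on opposite sides of 0.

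Among the genes whose difference passed, 238 higher and 134 lower ones had a wt light effect larger in size than the Cry2 effect, although few wt effects passed alone. The largest were weakly expressed. KANTR, a noncoding RNA, was read at 63.3, 47.3 and 68.3 in wt dark, 35.2, 11.4 and 37.6 in wt light, 26.1, 38.2 and 52.1 in Cry2 dark and 57.9, 55.1 and 63.9 in Cry2 light (1.85 ± 0.56). Its lowest value was that of wt light replicate 2, without which the difference was 1.32 (adjusted p 0.0191). ZBED6 (2.10 ± 0.65), HCFC2 (1.51 ± 0.47), PHF24 (1.82 ± 0.54) and ERV3-1 (1.65 ± 0.49, and 1.06 without that library) were further such cases. On the lower side, CD70, a ligand of the TNF family, was read at 16.5, 24.9 and 16.1 in wt dark, 27.6, 45.7 and 43.96 in wt light, 74.4, 35.3 and 53.6 in Cry2 dark and 36.2, 34.03 and 30.2 in Cry2 light (-1.61 ± 0.47). ASB12 (-1.29 ± 0.47), SLC38A6 (-1.01 ± 0.38) and HLA-DRA (-1.0 ± 0.36) lost their calls under 12, 11 and 8 of the alternatives.

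The same difference of light effects was measured again in cells sorted from co-cultures of both genotypes, in 12 libraries not used so far, with mCherry-positive cells for Cry2 and GFP-positive cells for wt. There, 3798 of 19436 genes (19.5%) were higher and 4082 (21.0%) lower. This total of 7880 became 9305 without 1 illuminated mCherry-positive library, and 7050 to 7747 without any other single library. The genes shared by both cultures, given below, were not counted without that library. Over the 19020 genes tested in both cultures, the differences correlated with Pearson's r of 0.911 and Spearman's rho of 0.811, as a description across genes, which are not independent. Of the genes higher in monoculture and tested in co-culture, 3079 (70.1%) were higher there too, which is 81.1% of the genes higher in co-culture, and 7 were lower. For the lower genes the number was 3445 (71.6% and 84.4%), and 4 were higher. SOX2 differed by -7.21 in co-culture and LEF1 by 8.49, against -7.76 and 9.20 in monoculture.

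In the test of the cultures against each other, 88 of 20322 genes (0.433%) had a more positive difference in monoculture and 77 (0.379%) a more negative one. In each of the 8 largest, the illuminated GFP-positive cells stood apart from wt light. TBXT stood at 28324 ± 1567 in Cry2 light and 27766 ± 2263 in illuminated mCherry-positive cells, but at 8.52 ± 4.95 in wt light and 119 ± 14.2 in illuminated GFP-positive cells, so its difference was 12.51 in monoculture and 7.69 in co-culture. SEZ6L followed the same pattern, with 18.7 ± 7.40 in wt light and 266 ± 36.9 in illuminated GFP-positive cells. NPTX1 went the other way, from 899 ± 205 in wt light to 29.1 ± 12.6 in illuminated GFP-positive cells, and IL17C, CUZD1, FOXJ1 and BNC1 were likewise lower in illuminated GFP-positive cells than in dark ones. The mean of the fusion was 396 ± 33.7 in illuminated and 370.2 ± 25.1 in dark GFP-positive cells, 272 ± 47.3 in wt light, 382 ± 51.6 in wt dark and 57087 ± 4646 in illuminated mCherry-positive cells. The part of engineered cells among the sorted GFP-positive cells in these differences was not tested.

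Among genes described above, WNT3 differed by 3.64 in monoculture and 1.03 in co-culture (limma adjusted p 5.1e-06 for the difference between them), and SFRP1 by -2.15 and -1.06 (adjusted p 1.0e-05). PRICKLE1 changed sign, from -0.55 to 2.20 (adjusted p 9.4e-07), with means of 2113 ± 139 and 259 ± 29.998 in dark and illuminated GFP-positive cells. The BMP target ID1 was higher in monoculture (0.80) and lower in co-culture (-2.29), going from 1563 ± 191 to 12829.9 ± 1583 in GFP-positive cells and from 2174 ± 90.7 to 4667 ± 4149.7 in mCherry-positive cells (adjusted p 0.00720 between cultures). The illuminated mCherry-positive libraries of ID1 were uneven, at 2223, 2320.0 and 9459, and ID3 differed by 2.03 and 0.37 (adjusted p 0.00305). NANOG (-6.32 and -7.68, adjusted p 0.00173) and CDH1 (-3.61 and -4.61, adjusted p 0.00208) were lower in both, and further in co-culture.

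**Figure D5:**
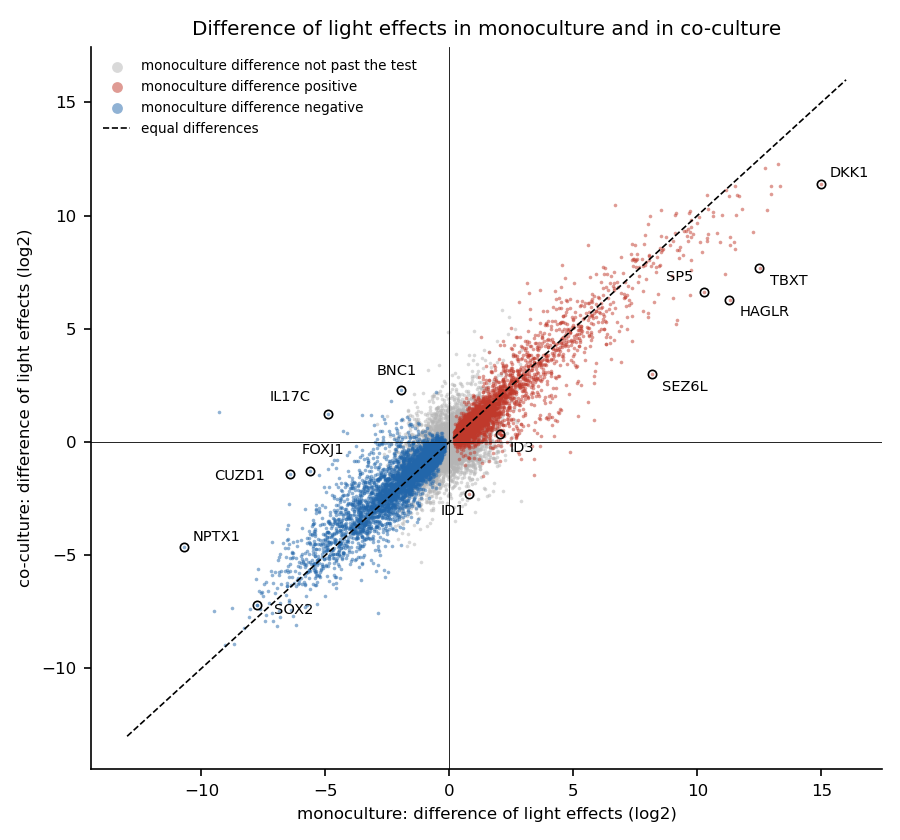
Difference of light effects in co-culture (vertical, log2) against that in monoculture (horizontal, log2) for the 19020 genes tested in both, coloured by the monoculture result, with a dashed line at equal differences. Most genes follow the line; TBXT, SEZ6L and HAGLR lie below it, and NPTX1, CUZD1, FOXJ1, IL17C and BNC1 above it.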

How the data were processed

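Tools named in the submitters' processing notes are STAR, Bowtie2, FastQC, cutadapt, HTSeq and DESeq; their versions are not given in the sources used here. The build is GRCh38 in these notes and hg19 with 4 extra genes per the file headers, a conflict that was not resolved. Coordinates come from GENCODE 29 (GRCh38) through the Ensembl identifiers, and RefSeq GRCh38.p14 for the promoter. The authors' deposited signal for 28301 features is read counts divided by 1 factor per library: 100.0% of values were whole reads within 0.01 after multiplication by that factor. For the monoculture libraries the authors' deposited sample table gives an RNA integrity score, read counts in total, and GC and alignment in percent. Libraries were made with a strand-keeping kit, per the labels' protocols, but no source used here says whether counting used strand, so overlapping and antisense genes are uncertain. In monoculture, genotype tags and titles contradict each other; titles were used, which go with the construct reads.

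The 12 monoculture libraries were fitted together with limma-trend 3.58.1 (R 4.3.3) on log2(value + 1), for genes that reached a value of 10 in 3 or more libraries, with Benjamini-Hochberg adjustment over all genes tested. Alternatives used edgeR 4.0.16 or DESeq2 1.42.0 on the recovered reads, TMM or quantile scaling, pseudocounts of 0.5 and 5, other filters, a replicate block, robust variances, left-out libraries and a fit of all 24 libraries. Tests were checked on simulated data. The 37 gene lists and the members described were chosen with earlier results of these data known. Named by rule were LRP6 and the construct, the 12 largest differences each way with a mean of at least 50, up to 5 list members per direction by size and those not past the test, all genes past the test in wt, up to 8 per direction where the wt effect was the larger, and the 8 largest differences between cultures. AXIN2, CDH1, CDH2, CDKN1A, CER1, EOMES, GSC, HOXA5, HOXB9, HSPA8, ID1, ID2, L1TD1, LIN28A, POSTN, POU5F1, RNF43, SNAI1, THY1, VIM, WNT3 and ZNRF3 were named outside it, after their values were seen. Some results that the rule would name are not reported here. No library was left out of the values reported first.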

Additional observations from a re-analysis of the deposited data

Results flagged for a closer look

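The difference of light effects is itself a test of 2 groups against each other, and 9303 genes passed it, 4433 higher and 4870 lower in Cry2 than in wt. Between monoculture and co-culture, 165 genes passed the test of the difference of differences. The 8 largest of these, in log2 of monoculture minus co-culture, follow with their group means. TBXT was more positive in monoculture by 4.82, with 119 in illuminated GFP-positive cells and 8.52 in wt light. SEZ6L was more positive by 5.17, with 266 and 18.7, and HAGLR, a noncoding RNA beside the HOXD genes, by 5.02, with 29.4 and 0.635. The other 5 were more negative in monoculture: IL17C by -6.15 (1.13 in illuminated GFP-positive cells and 116 in wt light), NPTX1 by -6.06 (29.1 and 899), CUZD1 by -5.05 (64.03 and 892), FOXJ1 by -4.35 (67.3 and 467) and BNC1 by -4.24 (4.21 and 53.2).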

How the results depend on the processing

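The count of 9303 genes past the test stayed between 8105 and 9798 under every alternative run, with higher and lower genes each within 1.5 times of the main count: 4107 and 5008 with edgeR, 4589 and 4968 with DESeq2, 3854 and 4251 without wt dark replicate 1 (GC of 33.73%) and Cry2 dark replicate 3 (RNA integrity number 7.6). The replicate numbers do not pair the libraries, as same-numbered libraries correlated at -0.061 to 0.058 after group means were removed, and with the replicate block 9165 genes passed. The wt light effect is the unstable one: 14 genes (6 higher, 8 lower) became 47 (24 and 23) with edgeR, 2 (0 and 2) without the same 2 libraries, 5 lower genes with the replicate block, and 3 to 32 (1 to 15 higher, 2 to 17 lower) with single libraries left out. The LRP6 difference was 0.56 (exact permutation p = 0.015), and 0.32 without wt light replicate 2 (exact permutation p = 0.06). With a pseudocount of 5 it was 0.56 (exact permutation p = 0.015), and with TMM scaling 0.58 (exact permutation p = 0.02). Each of these p-values is against no light effect in either genotype. Some list counts moved by over 1.5 times. With edgeR the higher HOX genes went from 26 to 2 and higher naive and germ cell factors from 3 to 1. A filter at 50 took higher HOX genes to 15, lower Wnt ligands from 3 to 1, lower naive and germ cell factors from 5 to 3 and the lower blood and endothelial gene from 1 to 0. Lower cell cycle genes went from 3 to 6 with quantile scaling, 5 without wt light replicate 1 and 1 without the same 2 libraries. Lower cholesterol genes went from 3 to 5 with quantile scaling and to 1 without wt dark replicate 2 or with 24 libraries, and lower circadian genes from 5 to 3 without those 2 libraries. Higher endoderm genes went from 2 to 1 under 10 alternatives, lower Notch genes from 5 to 3 under 5, and counts of lower mesenchymal, cold-inducible, endoderm and transducer genes moved by 1 or 2. Of 272 named genes tested, 226 passed, and 197 of these kept the call under each of the 24 alternatives. Weak genes passed less often: 29.6% of genes with a mean up to 50 passed, against 53.9% of those above 5000, with median SEs of 0.72 and 0.0957. The part of depth in this was not tested.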

Other observations

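The comparisons below were chosen after the values were seen, and none was tested. Of 1105 protein-coding genes tested on chromosome 19, 172 (15.6%) were higher, the smallest share among the chromosomes with at least 100 such genes, followed by chromosome 16 with 22.3%. The lower share was 31.7% (350 genes), beside 31.3% on chromosome 4 and 30.6% on chromosome 7. Over all 14946 protein-coding genes, chromosome 19 included, the shares were 26.6% and 27.7%. The 223 zinc finger (ZNF) genes of that chromosome had 24 higher (10.8%) and 34 lower (15.2%), and the other 882 genes had 148 higher (16.8%) and 316 lower (35.8%). Without wt light replicate 2 these 882 had 186 higher and 308 lower, and in co-culture 172 and 216 of 875, with a median log2 difference of 0.05 there and -0.16 in monoculture.

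Transcript length went with direction. With genes in 4 equal groups by their longest transcript, the group of 68 to 2197 bases had 641 higher and 1088 lower, and the group from 5295 bases had 1295 and 927. The medians of the log2 difference were -0.14 and 0.14. Without wt light replicate 2, which was itself low for long transcripts, the counts were 823 and 1027 in the shortest group and 1309 and 1124 in the longest, with medians of -0.05 and 0.06. The part of that library in single genes was not tested beyond the values given for them.

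Protein-coding genes passed the test for 54.4%, long intergenic RNAs passed for 36.7%, antisense RNAs for 29.3% and processed pseudogenes for 9.03%. Their median SEs were 0.16, 0.63, 0.60 and 0.64 in that order, so equal differences would pass less often outside protein-coding genes. The part of these errors in the shares was not tested.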
